A study of Homo sapiens with 6 samples.

Results

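The transcripts described here belong to families of human DNA repair genes, measured in A549 cells, an established lung adenocarcinoma line, after heat, X-rays or both. Members were the genes whose platform symbol begins with FANC, RAD, XRCC, ERCC or NEIL in the family's usual form, or names an MSH, MLH, PARP, DNA ligase or DNA polymerase gene, together with BRIP1, EXO1 and MDC1. The rule found 41 of the 14884 genes on the arrays, and other genes of these families are not analysed here. By their best known role, 11 members serve homologous recombination, 6 base excision and single-strand break repair, 5 damage signalling, 4 mismatch repair, 4 translesion synthesis and 3 end joining. The Fanconi pathway and nucleotide excision repair had 1 member each, BRIP1 and RAD23B. The remaining 6 matched by name alone: the cohesin subunits RAD21 and RAD21L1, RAD54L2, FANCD2OS and the noncoding RNAs RAD21-AS1 and ERCC6L2-AS1.

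Cells were heated for 1 h at 41.5 °C or 44 °C, each temperature with and without 3 Gy of X-rays given straight after the heat. Another group received 3 Gy alone at 37 °C, and the last was an untreated control at 37 °C. All groups grew at 37 °C for a day beforehand. Heated cells and irradiated cells were returned to 37 °C for 3 h, while no such time is stated for the combined groups or the control. Each of the 6 groups had 1 array. The labels do not state whether the cultures were separate, so the scatter among the 6 arrays may be partly or wholly technical. With 1 array per group, a p-value here sets a difference against the gene's departure from additive effects of temperature and radiation. That departure is moderated by the variance of all genes, and it cannot be told apart from scatter among arrays. A549 is a single cell line, and in RNA from a bulk culture fewer cells of a kind and less RNA per cell cannot be told apart.

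Cells repair DNA damage by several routes. Double-strand breaks are either joined end to end, with the Ku proteins and the XRCC4 ligase complex, or copied from the sister chromatid by homologous recombination, in which nucleases such as EXO1 trim the ends before the matching strand is found. Damaged bases and single-strand breaks are handled by glycosylases, PARP1 and XRCC1, mispaired bases by the MSH and MLH proteins, and lesions met during replication by low-fidelity polymerases. X-rays cause breaks and base damage, and hyperthermia is known as a sensitizer of cells to radiation.

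The arrays gave log2 levels normalized by the authors, with medians over all features between 4.39 and 4.46. Comparisons came from an additive limma model of temperature and radiation over all 6 arrays, with Benjamini-Hochberg adjustment across 14884 genes and a threshold of 0.05 on the adjusted p. As a check of the treatments, HSPA1B, an inducible HSP70, rose by 2.67 on the log2 scale at 44 °C and by 1.87 at 41.5 °C. All 10 measured p53 target genes had positive radiation differences (median 0.56), although 0 of them passed the adjusted threshold. Of 14 epithelial and A549 markers 8 were measured: KRT18 (mean log2 level 11.5), KRT7, KRT8 and EPCAM lay above the median of all genes, and KRT19, NAPSA and the surfactant genes SFTPB and SFTPC below it. The 2 measured fibroblast markers of 6, DCN and LUM, had mean log2 levels of 2.85 and below. Of 6 endothelial markers 4 were measured: CLDN5 (mean log2 level 5.56) lay above the median of all genes, and PECAM1, VWF and KDR below it. Of 7 leukocyte markers 3 were measured, CD68 (mean log2 level 8.71), CD14 (5.41) and LYZ (3.03). Their summed log2 level was 17.96 to 17.98 at 44 °C, 16.45 to 16.92 at 41.5 °C and 16.56 to 17.04 at 37 °C. LYZ had differences of 0.11 at 44 °C against 37 °C and -0.04 against 41.5 °C, and neither passed. CD68, a lysosomal protein of macrophages and other cells, rose by 0.68 at 44 °C against 37 °C (adjusted p = 0.0523 without the irradiated array) and by 0.56 against 41.5 °C, where CD14 rose by 0.77, EPCAM rose by 0.45 and KRT7 fell by 0.40 (the last pair of calls lost without either 41.5 °C array). The part of these markers in the results was not tested.

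Most repair genes had lower levels after severe heat, and a few passed the test. At 44 °C against 37 °C, 5 of the 41 members fell and 0 rose, whereas 2.54% of all genes fell and 3.57% rose (6.11% in either direction). The 5 were XRCC2 and EXO1 of homologous recombination, MLH3 of mismatch repair, PARP1 of break signalling and POLI of translesion synthesis. Each fell by between 0.40 and 0.48 on the log2 scale, and 0 of the 5 passed where the variance moderation had no intensity trend. The median over the members was -0.21, against -0.04 over all genes, and 32 of 41 differences were negative, against 57.8% of all genes. Repair members were mostly bright, and the 32 above the median level of all genes held all 5 falls. Of the 7442 genes above that level, 313 fell and 388 rose, 61.7% of differences were negative and the median was -0.06. In 26 members both arrays at 44 °C lay below both arrays at 37 °C, as they did in 31.2% of all genes, and in 3 members (NEIL2, RAD1 and RAD54L2) both lay above, against 19.9%.

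Homologous recombination, the largest group, had negative values throughout. All 11 of its members lay lower in both 44 °C arrays than in both 37 °C arrays, as did 31.2% of all genes. Of the 11, 2 passed the threshold, and the median was -0.31. The members were chosen with an earlier description of this pattern known, so the count is not independent of it. Of these members RAD51AP2 (mean log2 level 2.12) and RAD51B (4.37) lay below the median level of all genes, RAD51AP2 far below it. XRCC2, which acts in strand pairing during homologous recombination, had log2 levels of 7.34 with radiation and 7.43 without at 44 °C, against 7.998 with radiation and 7.74 without at 37 °C. The groups did not overlap, and the irradiated 37 °C array stood above the control. The difference was -0.48 ± 0.10 (SE from the model, adjusted p = 0.0196 in limma), a 1.39-fold fall, and the call was lost without the irradiated array or the combined 44 °C array, with adjusted p up to 0.268.

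EXO1, the exonuclease that lengthens resected ends and also serves mismatch repair, had log2 levels of 7.73 with radiation and 7.67 without at 44 °C, against 8.18 with radiation and 8.04 without at 37 °C. Both 44 °C arrays were clearly below both 37 °C arrays, and the difference was -0.41 ± 0.08 (adjusted p = 0.0149 in limma), or 1.33-fold lower. Omitting a single 37 °C or 44 °C array ended this call each time, with adjusted p up to 0.214. The other members of the group did not pass, although RAD50 and RAD54B passed in 4 of the 11 alternatives each. For each gene these included leaving out either 41.5 °C array, which gives the same fitted difference and is not a separate check. RAD50, the coiled-coil ATPase of the MRE11 complex, had 9.40 and 9.21 at 44 °C with and without radiation, against 9.61 and 9.58 at 37 °C (-0.29, adjusted p = 0.0951). RAD51C, which also acts in homologous recombination, had a difference of -0.31 (adjusted p = 0.0950), RAD54B, a DNA translocase of the same pathway, -0.36 (adjusted p = 0.0644), and RAD51AP1, an accessory factor of strand pairing, had the smallest at -0.15.

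The promoters of XRCC2, EXO1 and MLH3 are shown because these 3 members fell at 44 °C against both other temperatures. That of BRIP1 is shown because its fall passed at 41.5 °C only. At 44 °C BRIP1 was also lower than at 37 °C in both arrays, by a difference that did not pass (-0.31, adjusted p = 0.104 in limma). The sequences are from RefSeq (GRCh38.p14), which held a promoter for 35 of the 41 members, and run from 250 bases before the annotated gene start to 50 after it. Capitals mark matches, on either strand, to TTTNGCGC (an E2F-type motif), CCAAT (the NF-Y motif), TTTGAA (the CHR motif of cell-cycle genes) or the heat shock element, and the matches shown do not overlap each other.
EXO1 at chr1:241847954-241848253, + strand: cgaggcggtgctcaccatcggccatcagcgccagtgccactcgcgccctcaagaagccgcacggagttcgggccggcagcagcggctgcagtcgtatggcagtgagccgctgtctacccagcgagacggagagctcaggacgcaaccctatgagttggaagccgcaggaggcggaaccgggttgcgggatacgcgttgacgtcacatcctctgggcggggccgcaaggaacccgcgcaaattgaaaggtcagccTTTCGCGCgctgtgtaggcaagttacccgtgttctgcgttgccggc
XRCC2 at chr7:152676092-152676391, - strand: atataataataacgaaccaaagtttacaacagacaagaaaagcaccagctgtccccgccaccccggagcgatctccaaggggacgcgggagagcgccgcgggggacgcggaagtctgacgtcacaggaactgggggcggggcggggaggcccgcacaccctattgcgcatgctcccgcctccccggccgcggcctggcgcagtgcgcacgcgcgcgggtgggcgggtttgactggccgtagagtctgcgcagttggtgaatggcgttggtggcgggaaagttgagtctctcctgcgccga
MLH3 at chr14:75051418-75051717, - strand: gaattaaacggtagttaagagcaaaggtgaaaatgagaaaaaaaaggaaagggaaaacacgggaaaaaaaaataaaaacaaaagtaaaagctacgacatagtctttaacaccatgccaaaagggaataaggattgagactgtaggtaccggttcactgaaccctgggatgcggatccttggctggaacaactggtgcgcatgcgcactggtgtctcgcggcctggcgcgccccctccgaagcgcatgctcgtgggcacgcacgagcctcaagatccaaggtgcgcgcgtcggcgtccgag
BRIP1 at chr17:61863479-61863778, - strand: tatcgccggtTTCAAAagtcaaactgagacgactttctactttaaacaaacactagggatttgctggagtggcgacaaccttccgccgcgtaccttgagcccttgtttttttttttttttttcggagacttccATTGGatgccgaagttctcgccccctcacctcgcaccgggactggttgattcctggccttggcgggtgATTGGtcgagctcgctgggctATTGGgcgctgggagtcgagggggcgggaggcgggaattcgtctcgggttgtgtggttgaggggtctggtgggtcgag
The EXO1 window held TTTNGCGC at positions 5 to 12 after the start. The BRIP1 window held CCAAT on the opposite strand at positions -117, -49 and -28 and TTTGAA on the opposite strand at -240, while the XRCC2 and MLH3 windows held none of these letters. TTTNGCGC was found in 3 of the 35 member promoters (EXO1, MSH3 and XRCC6). It was found in 1.83% of 27305 promoters of the same length and in 2.47% of the 10749 that belong to genes on the arrays. CCAAT was found in 16 of 35, against 35.7% and 36.0% of these 2 sets in that order. TTTGAA was found in 6 of 35, against 15.4% and 11.8%, and a heat shock element in 0 of 35, against 0.487% and 0.465%. The members had a median GC content of 66.0%, against 58.3% and 63.3%, and a match of letters describes the window only.

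Mismatch repair showed the same direction at 44 °C. All 4 members lay lower in both 44 °C arrays than in both 37 °C arrays, as did 31.2% of all genes. The median was -0.29, and 1 passed. MLH3, a MutL-type protein best known from meiosis, had log2 levels of 6.24 with radiation and 6.27 without at 44 °C, against 6.63 with radiation and 6.81 without at 37 °C. The fall was 1.38-fold (-0.46 ± 0.10, adjusted p = 0.0210 in limma), and it was lost without the control, the irradiated array or the 44 °C array, with adjusted p up to 0.273. MSH6, a subunit of the complex that recognizes single mispairs, came close to the threshold (-0.33 ± 0.09, adjusted p = 0.0516). It passed in 5 of the 11 alternatives described in the closing section. These included leaving out either 41.5 °C array, which gives the same fitted difference and is not a separate check. Averaging features, also among them, leaves the difference of this single-feature gene unchanged. MSH3, the subunit for larger loops, and MSH5, a meiotic family member, had differences of -0.22 and -0.26.

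Among base excision and single-strand break genes, 5 of 6 differences at 44 °C were negative and 1 passed, with a median of -0.27. PARP1, the sensor of DNA breaks that builds poly(ADP-ribose) chains, had log2 levels of 7.43 with radiation and 7.35 without at 44 °C, against 7.82 with radiation and 7.76 without at 37 °C. The 2 arrays of each temperature differed by less than 0.1 while the temperatures were 0.40 ± 0.08 apart (adjusted p = 0.0199 in limma), a 1.32-fold fall. PARP1's relative PARP2 had a difference of -0.09, and the scaffold XRCC1 had -0.26 (adjusted p = 0.104). NEIL2, a glycosylase of oxidized bases, had a positive value of 0.10 with both 44 °C arrays above both 37 °C arrays. Translesion synthesis had 1 fall in 4 members. POLI, a low-fidelity polymerase of the Y family, had log2 levels of 6.72 with radiation and 6.85 without at 44 °C, against 7.17 with radiation and 7.23 without at 37 °C, a 1.33-fold fall (-0.41 ± 0.09, adjusted p = 0.0244 in limma). The calls of PARP1 and POLI ended likewise with each 37 °C or 44 °C array omitted, with adjusted p up to 0.206 and 0.229.

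Values at 44 °C were closer to 0 or positive in other groups. RAD18, the ubiquitin ligase that marks PCNA for translesion synthesis, had a difference of 0.12 at 44 °C, and the 5 damage-signalling members had a median of 0.07. RAD1, a subunit of the 9-1-1 clamp, had 6.53 with radiation and 6.43 without at 44 °C, against 6.16 with radiation and 6.34 without at 37 °C (0.23, adjusted p = 0.277), the highest value of any member. XRCC5, or Ku80, one of the end-binding Ku proteins, had 10.66 and 10.64 at 44 °C with and without radiation, against 10.82 and 10.77 at 37 °C (-0.14, adjusted p = 0.256). All 3 end joining members had negative values, -0.21 for XRCC4 and -0.06 for XRCC6, or Ku70, and XRCC4 and XRCC5 were among the 26 members with both 44 °C arrays below both 37 °C arrays. RAD23B, which with XPC recognizes bulky lesions, had -0.03. The 6 members that matched by name alone had a median of 0.03, and the cohesin subunit RAD21 had -0.06.

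**Figure D1:**
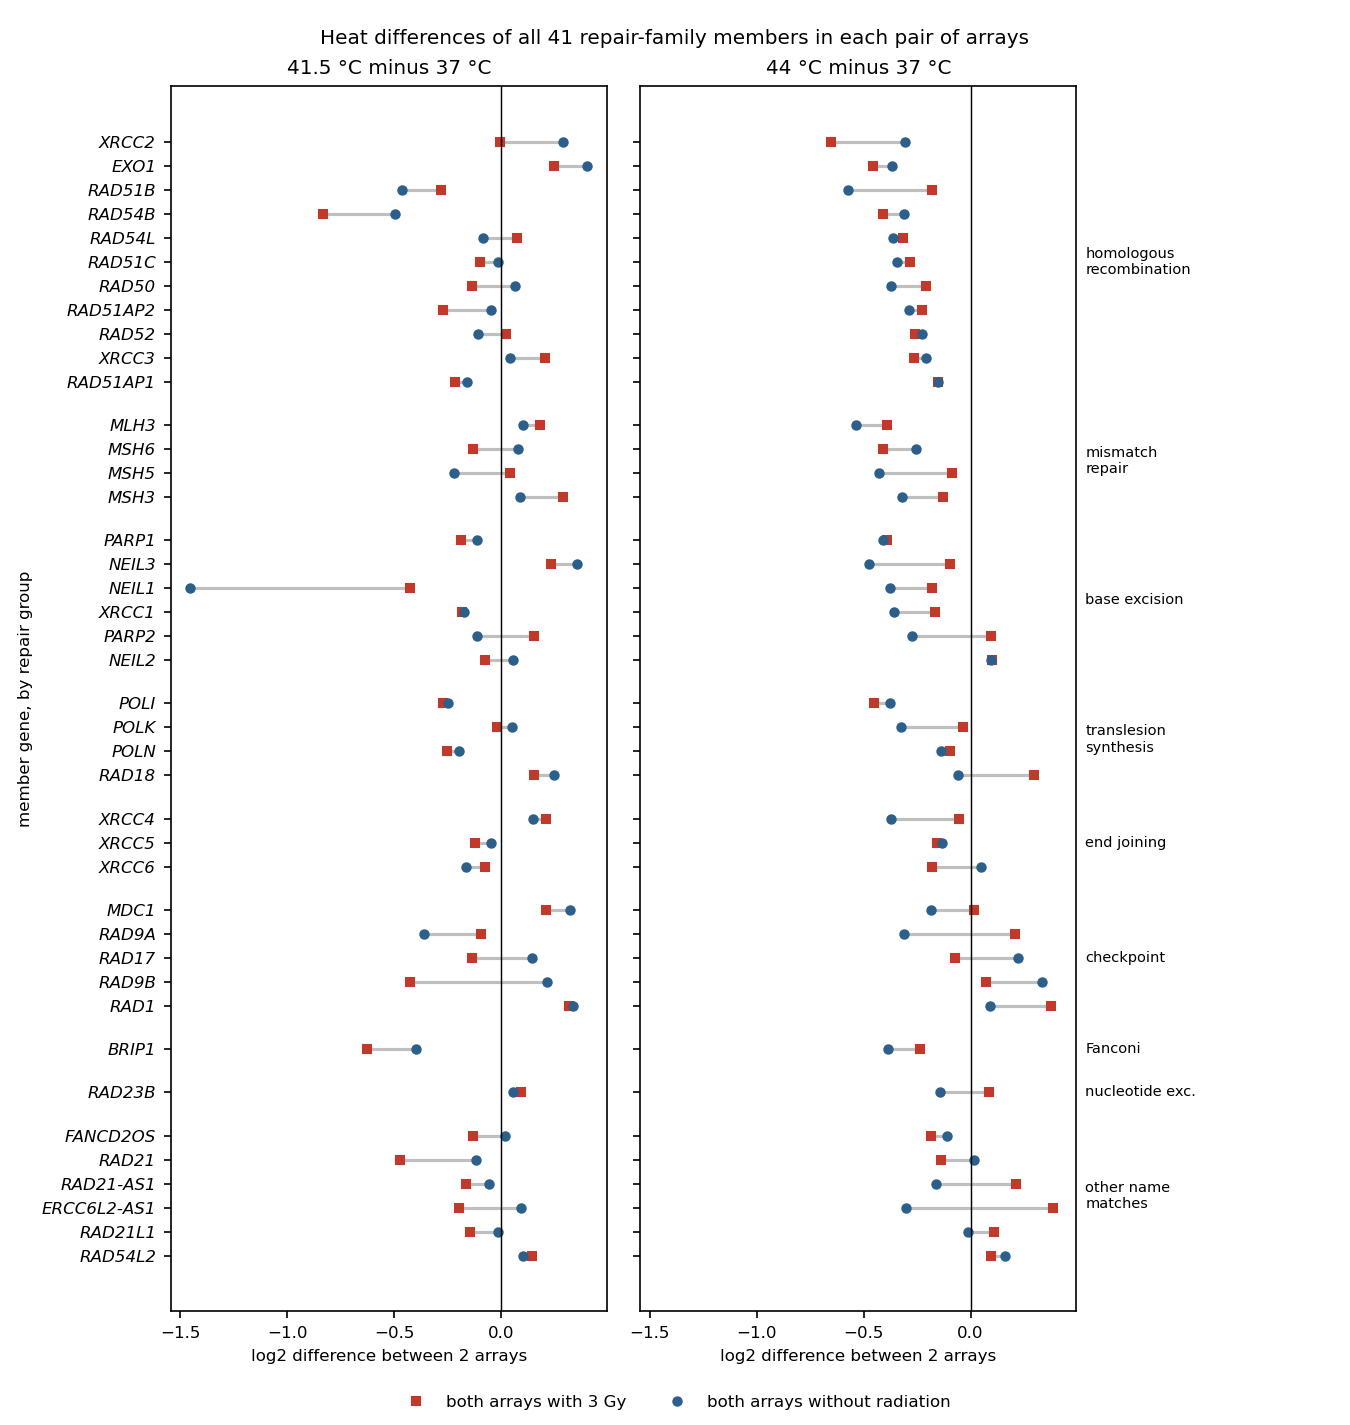
Differences in log2 level between heated cells and cells at 37 °C for each of the 41 members, by repair group, for 41.5 °C on the left and 44 °C on the right. Squares compare the 2 irradiated arrays and circles the 2 arrays without radiation. At 44 °C all 11 recombination members and all 4 mismatch repair members lie left of 0 in both pairs, while at 41.5 °C the members lie on both sides and NEIL1 reaches -1.45 in the pair without radiation.

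Other genes of the same pathways were described in the same way at 44 °C, without a test of the list. Of 68 measured partner genes, 5 fell and 2 rose, beside 2.54% and 3.57% of all genes. Their median was -0.14, against -0.04 over all genes, and 52 values were negative, against 57.8% of all genes. The 6 nucleotide excision partners differed from this, with 4 positive values and a median of 0.03. ATR, the kinase that senses single-stranded DNA, fell by 0.37 and ATRIP, its obligate partner, fell by 0.62. FEN1, the flap nuclease of long-patch repair, fell by 0.43, DNA2, a second resection nuclease, fell by 0.42 and SFR1, an accessory factor of homologous recombination, fell by 0.62 (adjusted p = 0.00438 in limma). Without the control or without the irradiated array each of these 5 calls was lost, with adjusted p up to 0.326. Those of ATR, ATRIP, FEN1 and DNA2 were also lost without the intensity trend, those of ATR, FEN1 and DNA2 after median centring, and those of FEN1 and ATRIP without the combined 44 °C array, that of DNA2 without the 44 °C array and that of ATR without either.

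The 2 rises among the partners were UBE2B and DCLRE1B. UBE2B, the RAD6-type conjugating enzyme that works with RAD18, had log2 levels of 6.69 with radiation and 6.29 without at 44 °C, against 5.03 with radiation and 4.94 without at 37 °C. The arrays were far apart, with a 2.84-fold rise (1.51 ± 0.17, adjusted p = 5.4e-04 in limma) that kept its call without any 1 array. DCLRE1B, a nuclease of crosslink repair and telomeres also called Apollo, rose by 0.82 ± 0.11 (adjusted p = 0.00162 in limma), which became adjusted p = 0.0768 without the irradiated array. Of 20 measured G1/S genes, which are made as cells enter replication, 2 rose (CCNE1 by 0.67 and CDC6 by 0.48), while MCM3 fell by 0.31 and MCM6 fell by 0.30, with a median of -0.13; each of these calls was lost without the control or the irradiated array. Their summed log2 level was 159.1 to 159.3 at 37 °C, 160.1 to 160.8 at 41.5 °C and 158.1 to 158.6 at 44 °C, and the part of cell-cycle genes in the repair values was not tested.

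Mild heat left the members spread on both sides. At 41.5 °C against 37 °C, 3 of 41 fell and 0 rose, whereas 1.1% of all genes fell and 2.18% rose (3.29% in either direction). The median was -0.05, against -0.0039 over all genes, with 26 negative values. Among the 32 members above the median level 2 fell, and of the 7442 genes above it 140 fell and 301 rose. Both 41.5 °C arrays lay below both 37 °C arrays in 13 members, against 23.4% of all genes, and above in 9, against 22.8%, shares near those of all genes.

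The 3 falls were in RAD54B, BRIP1 and NEIL1, and 0 of them passed without the intensity trend. RAD54B had log2 levels of 6.94 with radiation and 7.27 without at 41.5 °C, against 7.77 with radiation and 7.76 without at 37 °C. That is a 1.59-fold fall (-0.67 ± 0.10, adjusted p = 0.00735 in limma), with the lowest value in the combined array. BRIP1, a helicase that unwinds structured DNA in crosslink repair, had 7.51 with radiation and 7.82 without at 41.5 °C, against 8.14 with radiation and 8.22 without at 37 °C (-0.51 ± 0.10, adjusted p = 0.0227 in limma). Both genes were again lowest in the combined array, and both calls were lost without the control, the irradiated array or the combined 41.5 °C array, with adjusted p up to 0.320.

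NEIL1, a glycosylase that opens oxidized bases, had log2 levels of 5.18 with radiation and 4.21 without at 41.5 °C, against 5.61 with radiation and 5.66 without at 37 °C. A single array, the one at 41.5 °C without radiation, stood far below the other 5, and the 2 pairs differed in size, -0.43 with radiation and -1.45 without. The fitted fall was 1.92-fold (-0.94 ± 0.21, adjusted p = 0.0434 in limma). Without that array the fitted value was -0.48 and the call was lost, as it was without the control or the irradiated array, with adjusted p up to 0.394. The mean signal of NEIL1 was below the median of all genes.

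No member rose at 41.5 °C, and the highest values were those of RAD1 (0.33, adjusted p = 0.167), EXO1 (0.32 ± 0.08, adjusted p = 0.0636), NEIL3, a glycosylase of dividing cells (0.29), MDC1, a scaffold bound to damaged chromatin (0.27), and RAD18 (0.20). EXO1 had 8.43 with radiation and 8.44 without at 41.5 °C, against 8.18 with radiation and 8.04 without at 37 °C. Its value passed in 4 of 11 alternatives, at adjusted p = 0.0408 where dim genes were left out, 0.0486 after median centring and 0.0454 and 0.0452 without either 44 °C array. Leaving out either 44 °C array gave the same fitted difference for EXO1, so these alternatives are not separate checks. Mismatch repair had a median of 0.06 and homologous recombination -0.04 at 41.5 °C. Among the 68 partner genes TOP3A, a topoisomerase that dissolves recombination intermediates, rose by 0.46 (adjusted p = 0.0253 in limma) and 0 fell. The call of TOP3A ended with each 37 °C or 41.5 °C array omitted, and also without the intensity trend.

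**Figure D2:**
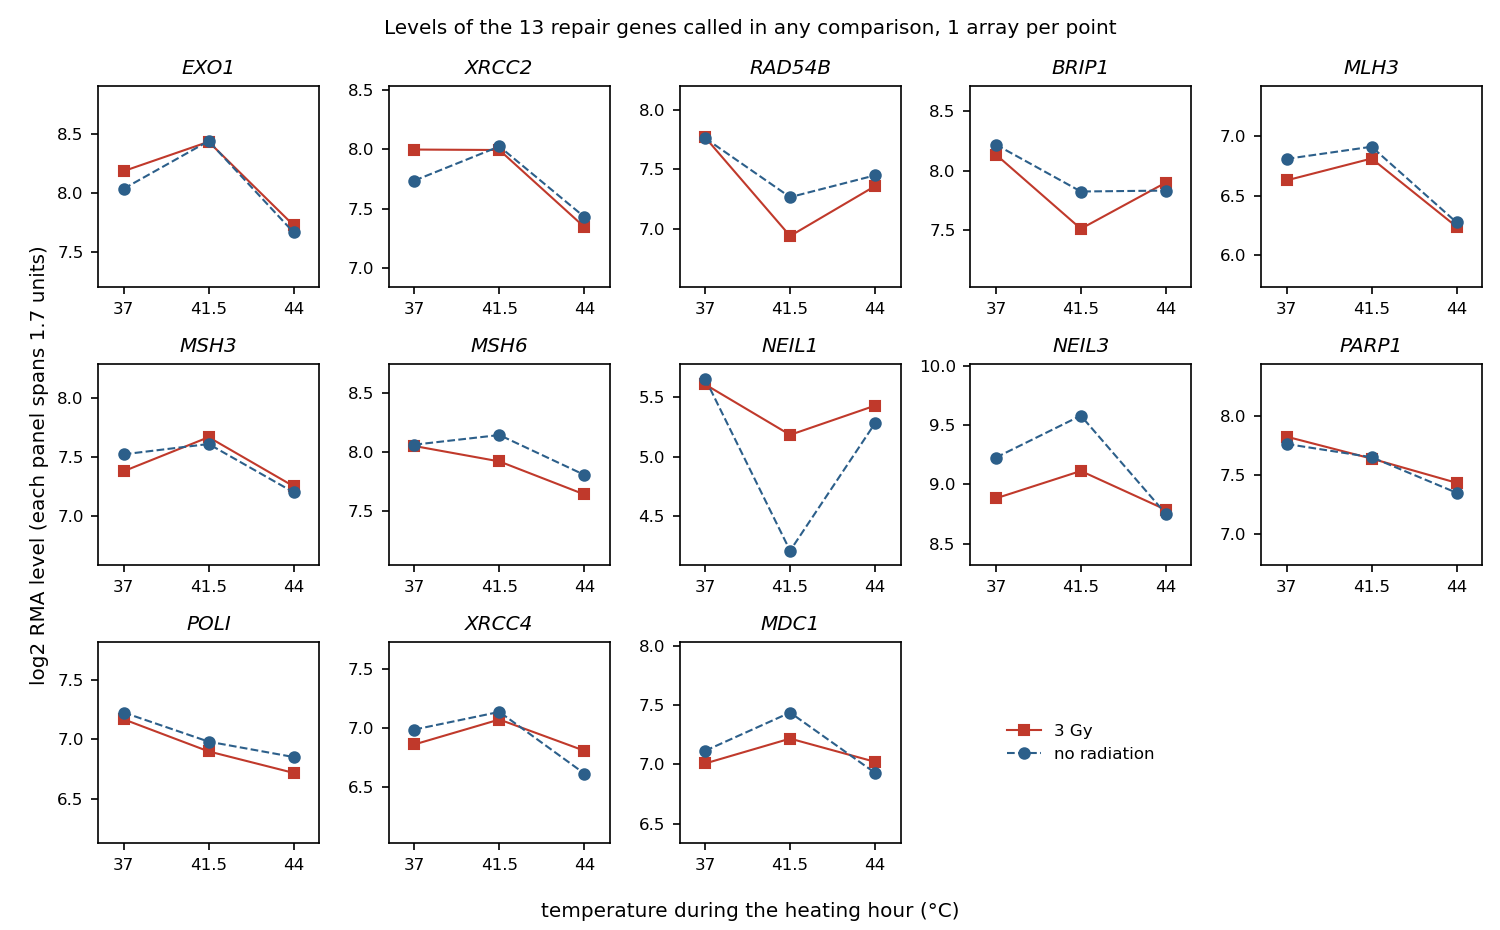
Log2 levels of the 13 members called in any comparison against temperature, with squares for arrays given 3 Gy and circles for arrays without radiation, 1 array per point, each panel spanning 1.7 log2 units. EXO1, XRCC2, MLH3, MSH3, MSH6, NEIL3, XRCC4, MDC1, PARP1 and POLI are lower at 44 °C than at 41.5 °C in both pairs. NEIL1 at 41.5 °C without radiation stands at 4.21. RAD54B and BRIP1 are lowest at 41.5 °C, although BRIP1 without radiation is almost level between 41.5 °C (7.82) and 44 °C (7.83).

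Set directly against mild heat, severe heat gave the largest number of calls among the members. At 44 °C against 41.5 °C, 8 of 41 were lower and 0 higher, whereas 7.23% of all genes were lower and 4.9% higher (12.1% in either direction). All 8 were among the 32 members above the median level of all genes. Calls were also more frequent among the 7442 genes above that level, of which 925 were lower and 511 higher. The median was -0.09, against -0.02 over all genes. In 21 members both 44 °C arrays lay below both 41.5 °C arrays, against 30.4% of all genes, and in 9 both lay above, against 23.6%. This comparison shares its 44 °C and 41.5 °C arrays with the comparisons against 37 °C, so its values stand beside theirs and are no separate evidence.

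EXO1 had the largest difference, 1.67-fold lower at 44 °C (-0.74 ± 0.08, adjusted p = 3.5e-04 in limma). Its log2 levels at 44 °C were 7.73 with radiation and 7.67 without, against 8.43 with radiation and 8.44 without at 41.5 °C. XRCC2 had 7.34 and 7.43 at 44 °C, against 7.99 and 8.02 at 41.5 °C, with and without radiation in that order (-0.62 ± 0.10, adjusted p = 0.00303 in limma). MLH3 had 6.24 and 6.27 at 44 °C, against 6.81 and 6.91 at 41.5 °C (-0.61 ± 0.10, adjusted p = 0.00320 in limma). These 3 kept their call in all 11 alternatives, the 6 that left out 1 array each and the 5 that changed a setting. The 11 were not all separate checks. Leaving out the unheated control or the unheated irradiated array gave the same fitted difference. Averaging features could not change it either, because each of these 3 genes has 1 feature.

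The other 5 calls were smaller, and each was lost without the intensity trend and without at least 1 array. NEIL3 had 8.79 with radiation and 8.75 without at 44 °C, against 9.11 with radiation and 9.58 without at 41.5 °C (-0.58 ± 0.11, adjusted p = 0.00757 in limma). Its call was lost without the 44 °C array (adjusted p = 0.0629). MSH3 had 7.25 and 7.20 at 44 °C, against 7.67 and 7.61 at 41.5 °C (-0.41, adjusted p = 0.0163), a call lost without the 44 °C or the combined 41.5 °C array (up to 0.121). XRCC4, the partner of ligase IV, was lower by 1.31-fold (adjusted p = 0.0374), MDC1 by 1.28-fold (adjusted p = 0.0488) and MSH6 by 1.24-fold (adjusted p = 0.0445). The call of MSH6 was lost without any 1 of the 6 arrays, and those of XRCC4 and MDC1 without any except the combined 44 °C array (adjusted p up to 0.346). Thus 3 of the 4 mismatch repair members were lower at 44 °C than at 41.5 °C, and MSH5 had -0.17. RAD54B (0.30), BRIP1 (0.20) and NEIL1 (0.66), which fell at 41.5 °C, had positive values here that did not pass.

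Of the 68 partner genes, 11 were lower at 44 °C than at 41.5 °C and 2 higher, beside 7.23% and 4.9% of all genes. SFR1 fell by 0.74, FAN1, a crosslink nuclease, fell by 0.68 and ATR fell by 0.60, and these 3 kept their calls without any 1 array. ATRIP fell by 0.59, FEN1 by 0.49, PALB2, a scaffold that brings recombination factors to breaks, by 0.47, and GEN1, a Holliday junction nuclease, by 0.47. UNG, the uracil glycosylase, fell by 0.47, PSMC3IP, an accessory factor of strand pairing best known from meiosis, by 0.39, TDP2, which frees topoisomerase-blocked ends, by 0.39 and the sliding clamp PCNA, which is also among the G1/S genes, by 0.39. Each of these 8 calls was lost without at least 1 array, and each was also lost without the intensity trend. That of PCNA was lost after further quantile normalization as well. UBE2B rose by 1.31 and DCLRE1B by 0.56. The call of DCLRE1B was lost without the combined 44 °C or the combined 41.5 °C array, and also without the intensity trend.

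Radiation gave no called member. With 3 Gy against none over the 3 temperatures, 0 of 41 members rose and 0 fell in limma, as did 0.0% of all genes in either direction. At an unadjusted p under 0.05 there was 1 member, NEIL3, and there were 733 of all genes, or 4.9%. The median over the members was -0.04, against -0.0001 over all genes. In 0 members did the 3 irradiated arrays lie beyond the 3 others, against 2.71% of all genes higher and 2.79% lower. The sign was the same at all 3 temperatures in 9 members, 7 lower (MLH3, MSH5, MSH6, POLI, POLN, RAD51AP1 and RAD54L), against 11.4% of all genes, and 2 higher (RAD51C and XRCC1), against 12.3%.

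The fitted radiation differences of the members ran from -0.26 for NEIL3 to 0.36 for NEIL1, and those of the 10 p53 targets from 0.21 to 1.18. NEIL3 had log2 levels of 8.88 with radiation and 9.23 without at 37 °C, 9.11 with radiation and 9.58 without at 41.5 °C, and 8.79 with radiation and 8.75 without at 44 °C. It was lower with radiation at 37 °C and 41.5 °C and almost level at 44 °C, and the fitted difference was -0.26 ± 0.09 (adjusted p = 0.858 in limma). Without either 44 °C array the difference was -0.41 and passed (adjusted p = 0.0446 without the combined array and 0.0448 without the other). RAD54L, a DNA translocase of homologous recombination, had the next lowest value with MSH5, both at -0.18, and XRCC1 had 0.13. NEIL1 had 0.36, with 0.98 in the pair at 41.5 °C. RAD51C had 0.12, and POLK, a translesion polymerase, -0.04.

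Between single arrays, the median radiation difference of the members was -0.06 at 37 °C, -0.12 at 41.5 °C and 0.07 at 44 °C, with 24, 32 and 15 negative values of 41. Over all genes the medians were -0.0023, -0.0017 and 0.0089, and 50.5%, 50.3% and 47.7% were negative. At 37 °C all 4 mismatch repair and all 4 translesion members were lower with radiation, at 41.5 °C all 5 damage-signalling members and all 4 translesion members were lower with radiation, and at 44 °C all 6 base excision members were higher. Each of these counts rests on 1 array with and 1 without radiation and has no replicate check. For the 10 p53 targets the median was 0.56 at 37 °C, 0.86 at 41.5 °C and 0.10 at 44 °C, with 10, 10 and 7 positive values. TP53INP1, a p53-induced nuclear protein, had the largest fitted value among them, 1.18 (adjusted p = 0.400 in limma). The partner genes had 0 calls for radiation in limma and a median of -0.02. At an unadjusted p under 0.05 there were 5 of 68, against 4.9% of all genes.

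**Figure D3:**
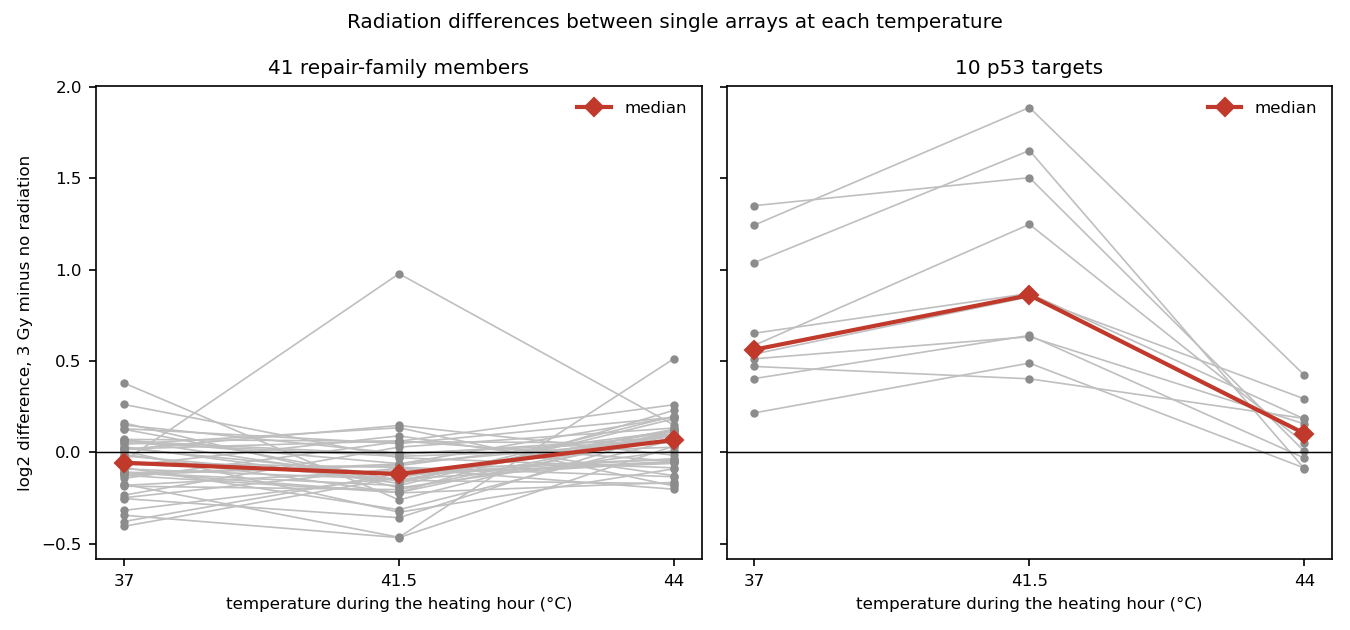
Log2 differences between the irradiated and the unirradiated array at each temperature for the 41 members on the left and 10 p53 target genes on the right, with grey lines for genes and red diamonds for medians. The medians of the members lie at -0.06, -0.12 and 0.07 and those of the p53 targets at 0.56, 0.86 and 0.10 for 37 °C, 41.5 °C and 44 °C.

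Departure from additivity, taken as the heat difference among irradiated arrays minus the heat difference among unirradiated ones, rests on 4 single arrays and has no replicate check. Its median over the members was -0.07 at 41.5 °C, against 0.0001 over all genes, and 0.06 at 44 °C, against 0.01. The interquartile range of members ran from -0.15 to 0.08 at 41.5 °C, against -0.18 to 0.18 for all genes, and from -0.07 to 0.29 at 44 °C, against -0.18 to 0.18. NEIL1 had 1.03 at 41.5 °C. Among members above the median signal, the highest at 44 °C were RAD9A, another clamp subunit (0.52), NEIL3 (0.38) and PARP2 (0.37), and the lowest XRCC2 (-0.35), RAD17, the clamp loader (-0.30), and XRCC6 (-0.23). At 41.5 °C the highest were RAD9A (0.27), MSH5 (0.26) and PARP2 (0.26), and the lowest RAD21 (-0.36), RAD54B (-0.33) and XRCC2 (-0.29). RAD9A, PARP2 and XRCC2 stand in both lists, and both departures use the same control and irradiated arrays.

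No test between repair groups was made, and their medians are given as a description. At 44 °C against 37 °C the medians ran from -0.31 for homologous recombination and the single Fanconi member, -0.29 for mismatch repair and -0.27 for base excision, through -0.15 for translesion synthesis and -0.14 for end joining, to 0.07 for damage signalling. At 41.5 °C the groups with several members lay between -0.11 for translesion synthesis and 0.06 for mismatch repair, with base excision at -0.08 and end joining at -0.09, while the single Fanconi member had -0.51 and the nucleotide excision member 0.07. For radiation all lay between -0.12 for mismatch repair and 0.03 for base excision, a spread much like that of the groups with several members at 41.5 °C, with homologous recombination at 0.01 and end joining at 0.0009.

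**Figure D4:**
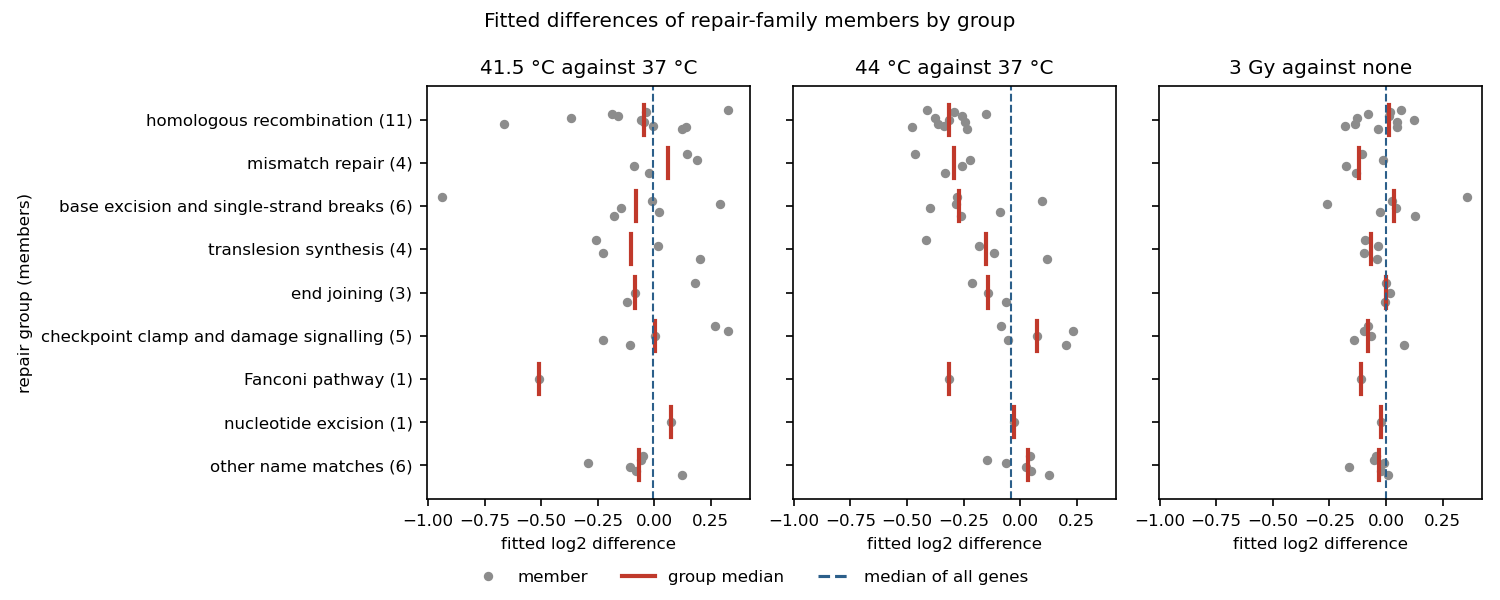
Fitted log2 differences of the members by repair group for 41.5 °C against 37 °C, 44 °C against 37 °C and 3 Gy against none, with grey points for genes, red bars for group medians and a dashed line for the median of all genes. At 44 °C the recombination, mismatch and base excision medians lie at -0.31, -0.29 and -0.27, left of the line at -0.04, and for radiation the group medians lie between -0.12 and 0.03.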

How the data were processed

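RNA of A549 cells was measured on 6 Affymetrix arrays, 1 for each group. The authors used Expression Console 1.1 (Affymetrix) with RMA, per the submitters' processing notes, and deposited log2 values, as their range shows. A genome build for the probes is not stated in the labels. The table holds 53617 features; the platform annotation names 1 gene for 16098 (30.0%), several for 0 and none here for 37519. RefSeq gene identifiers changed 0 symbols. The feature with the highest mean stood for a gene with several, which gave 14884 genes; 4 members (MDC1, MSH5, POLK and ERCC6L2-AS1) had several features.

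An additive model of temperature (3 levels) and radiation was fitted with limma 3.58.1 in R 4.3.3 to all 6 arrays (2 residual degrees of freedom, which also hold any interaction; prior degrees of freedom 8.06; variance moderation with an intensity trend; median residual SD 0.113). The median standard error was 0.138 for a temperature difference and 0.113 for radiation, and the number of arrays limits this precision. P-values are two-sided. The model was tested on simulated data in which the residual SDs were shuffled among genes. Those data held no intensity trend, so that part of the model was not tested. Tables were handled with pandas 2.3.3 in Python 3.11.15. The alternatives were leaving out each array, no intensity trend, further quantile normalization, median centring, leaving out dim genes and averaging features. They were not all separate checks. Leaving out either array of a temperature outside a contrast gave the same fitted difference. For radiation, leaving out the one or the other array of a temperature gave differences equal to each other but not to that of all 6 arrays. NEIL3 had -0.41 without either 44 °C array, against -0.26 with all arrays. Averaging features cannot change the difference of a gene with a single feature.

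The members and lists were chosen with earlier results of these data known. Named are all members called in any comparison, the 5 highest and 5 lowest of each comparison, the highest and lowest of each repair group, 3 departures from additivity at either end for each heat temperature, key genes, and called partner genes; RAD50, XRCC4, RAD23B, TP53INP1 and CD68 were added or kept for description.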

Additional observations from a re-analysis of the deposited data

Results flagged for a closer look

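In 5 members the differences after mild and severe heat had opposite signs. In each, both pairs of arrays lay above 37 °C at 41.5 °C and below it at 44 °C, and the direct contrast of 44 °C with 41.5 °C passed in limma. Both conditions were required by the rule that picked these members, and the share of all genes that meet it was not computed. EXO1 had a contrast of -0.74 (adjusted p = 3.5e-04), MLH3 of -0.61 (adjusted p = 0.00320) and NEIL3 of -0.58 (adjusted p = 0.00757). MSH3 had a contrast of -0.41 (adjusted p = 0.0163) and XRCC4 of -0.39 (adjusted p = 0.0374). Their values at 41.5 °C against 37 °C did not pass on their own, the nearest being EXO1 at 0.32 (adjusted p = 0.0636), and of the 5 EXO1 and MLH3 passed at 44 °C against 37 °C. The 2 heat differences share the 37 °C arrays. NEIL3 overlapped between temperatures, with 9.11 in the combined 41.5 °C array and 9.23 in the control. XRCC4 had only -0.05 in the irradiated pair at 44 °C.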

How the results depend on the processing

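The members' medians moved with the arrays left out and ranged from -0.25 to -0.15 at 44 °C against 37 °C, -0.09 to 0.02 at 41.5 °C against 37 °C, where the sign was not kept, -0.18 to -0.03 at 44 °C against 41.5 °C and -0.09 to -0.01 for radiation. The counts of calls depended on the setting. At 44 °C against 37 °C the 5 falls became 0 to 9 when 1 array was left out (0 without the irradiated array, 1 without the control or the 44 °C array, 9 without either 41.5 °C array), 0 without the intensity trend and 9 after further quantile normalization. At 41.5 °C against 37 °C the 3 falls became 0 to 3 (0 without the control or the irradiated array) and 0 without the trend. Rises there were 0 to 1, with 1 after median centring and 1 without dim genes, each time EXO1. At 44 °C against 41.5 °C the 8 lower members became 3 to 8, with 3 without the 44 °C array or without the trend, and the 0 higher became 0 to 1. For radiation the falls were 0 to 1. Counts of members whose arrays did not overlap stayed within 1.5 times after median centring. Of 1516 values of the 35 named members under an alternative, 61 lost their call, 21 gained one and the rest stayed on their side of the threshold. The cause was not tested. The values include alternatives that repeat or cannot change a fitted difference, so they are not all separate checks. No paired analysis was possible because the labels give no replicate numbers; the irradiated and unirradiated arrays of each temperature are already matched by the temperature term of the model.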

Other observations

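Features of the same member did not always give the same value. MDC1 was represented by 8 features, 6 of them with different values, and their differences at 44 °C against 41.5 °C ran from -0.35 to -0.32, while the call of MDC1 was lost when its features were averaged. The 2 features of MSH5 gave -0.17 and -0.02 for the same comparison, and -0.26 and -0.20 at 44 °C against 37 °C. Those of POLK gave -0.55 and -0.18 at 44 °C against 37 °C and opposite signs for radiation (0.26 and -0.04).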
